A study of Drosophila melanogaster with 6 samples.

Results

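The basement membrane and matrix protease genes are 10 genes of the fly extracellular matrix, *vkg*, *Col4a1*, *LanA*, *LanB1*, *LanB2*, *trol*, *Ndg*, *SPARC*, *Mmp1* and *Mmp2*. They were chosen by gene symbol, with no cut on their values but with earlier results of these data known, from a table of 23932 entries. All 10 were among the 11099 genes with enough reads to be tested. Their expression was determined by RNA-seq of total RNA from salivary glands (SGs) of wandering larvae of the last instar (L3). The SG is an exocrine organ of polyploid cells that makes the glue proteins with which the pupa attaches itself to a surface. Control SGs were from *w1118* larvae, the usual white-eyed laboratory strain (biological replicates 1 and 4, n = 2 libraries), and mutant SGs from *de2f1b* larvae (biological replicates 1, 2, 3 and 4, n = 4 libraries). The *de2f1b* allele lacks the alternatively spliced microexon of *E2f1* in every cell of the larva, not in the SG alone. The sources name neither the allelic combination of the sequenced larvae nor the number of glands in a library. All larvae were reared on the same medium under the same conditions, and no other agent was given.

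The basement membrane is the thin sheet of matrix on which the basal side of an epithelium rests, and the SG epithelium is wrapped in one. Its scaffold consists of collagen IV, a trimer that in flies is built from the chains encoded by *Col4a1* and *vkg*, and of laminin, a trimer of 1 alpha chain, the beta chain LanB1 and the gamma chain LanB2. Nidogen and the heparan sulfate proteoglycan perlecan bind these networks, SPARC is a secreted collagen-binding glycoprotein, and the matrix metalloproteinases cut matrix proteins. In fly larvae much of the collagen IV is made by the fat body and by hemocytes and reaches other organs through the hemolymph.

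Of the 10 genes, 2 were higher in *de2f1b* SGs and none was lower. *Ndg*, which encodes nidogen, rose from 81.9 ± 5.64 (SD, n = 2) to 627 ± 82.9 (SD, n = 4) normalized counts, and *LanA*, which encodes a laminin alpha chain, rose from 8230 ± 227 (SD, n = 2) to 14680 ± 1107 (SD, n = 4). The partner laminin chains, collagen IV, perlecan, SPARC and the proteases did not pass the test (limma, adjusted p under 0.05). Across all genes tested 3.17% passed as higher and 1.07% as lower, and an unadjusted p under 0.05 was also reached by 2 of the 10 genes as higher and by 0 as lower, beside 12.5% and 9.09% of all genes. No gene of the 10 was called lower by edgeR or DESeq2 on the recovered reads either. Over the 10 genes the log2 fold change had a median of 0.41, beside 0.02 over all genes tested, with 7 positive and 3 negative values. The normalized count is the read count of a gene divided by 1 size factor per library, and the log2 fold change compares *de2f1b* with *w1118* on the log2 of this value plus 1.

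**Figure D1:**
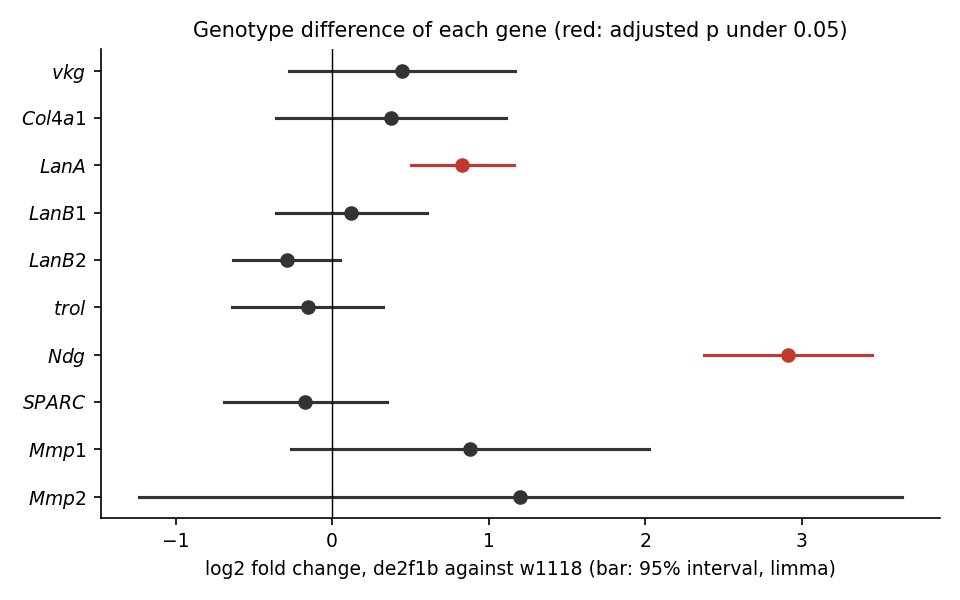
The log2 fold change of each of the 10 genes in *de2f1b* SGs (n = 4 libraries) relative to *w1118* SGs (n = 2), on the x axis, is shown by a point, and its 95% confidence interval from limma by a bar, in red at an adjusted p under 0.05. The intervals of *LanA* (0.50 to 1.16) and *Ndg* (2.38 to 3.45) lie to the right of 0 and the other 8 cross it.

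The libraries held between 78317269 and 94907006 reads on genes in *w1118* and between 56495956 and 86202639 in *de2f1b*, so that 3 reads corresponded to a normalized count of 2.35 to 4.11. Each of the 10 genes had at least 85 reads in every library. In total 352 genes were higher and 119 lower in *de2f1b* SGs, which became 201 higher and 120 lower under quantile normalization. *E2f1* itself was at 12544 and 18666 normalized counts in *w1118* and at 12896, 10267, 9304 and 7190 in *de2f1b*. Its groups overlapped, and the difference of -0.66 ± 0.27 (standard error) on the log2 scale did not pass the test (limma, adjusted p = 0.230). A count per gene does not separate transcripts with and without the microexon, so *E2f1* could not check the labels. The SG markers were abundant in all libraries, where the normalized counts of 10 SG genes summed to between 8598560 and 22501700, led by the glue genes *Sgs3*, *Sgs7* and *Sgs5*. Markers of other tissues were present as well. Those of the fat body, led by *Fbp1*, *Lsp2* and *Lsp1gamma*, summed to 4508970 and 4903410 in *w1118* and to between 3125140 and 6102270 in *de2f1b*. The ring gland list was led by *sro*, *spok* and *phm*. In *de2f1b* replicates 3 and 4 each, 7 of its 8 markers, all but *sro*, were more than 10-fold above the higher control. In replicates 1 and 2 it was 0 of 8. Midgut markers (led by *Jon65Aiv*, *betaTry* and *alphaTry*) summed to 327650 in *de2f1b* replicate 1 and to 35163 in replicate 3, beside at most 169 in the other libraries. The controls differed too. Imaginal disc markers (led by *ct*, *dpp* and *wg*) summed to 3091 and 1857 in *w1118* and to between 2267 and 4184 in *de2f1b*. Without *ct* they summed to 1617 and 395 in *w1118*, beside 571 to 2404 in *de2f1b*. Trachea markers (led by *pio*, *trh* and *vvl*) summed to 6162 and 3452 in *w1118* and to between 5315 and 8505 in *de2f1b*. In bulk tissue, fewer cells of a type and less RNA per cell cannot be told apart.

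Levels were first compared between the genes per kb of exon, from the merged exons of each gene in the annotation of BDGP6.54. *SPARC* had the highest level in *w1118* SGs, 6134 normalized counts per kb, above 94.1% of the 11059 genes tested that have a length. *Col4a1* (1586 per kb) and *trol* (1255 per kb) followed, and then *LanB1* (870), *LanB2* (821), *vkg* (742) and *LanA* (704). The proteases *Mmp1* (96.8 per kb) and *Mmp2* (86.0 per kb) were lower, and *Ndg* was lowest with 17.0 per kb, above 21.4% of the genes. Among neighbours in this order, the *w1118* libraries overlapped for *Col4a1* and *trol*, *LanB1* and *LanB2*, *LanB2* and *vkg*, *vkg* and *LanA*, and *Mmp1* and *Mmp2*, so these neighbours did not differ beyond their spread. *SPARC* lay above *Col4a1* and *LanA* above *Mmp1* in 6 of 6 libraries of both genotypes. *Ndg* was the lowest of the 10 genes per kb in both controls, while *Mmp2* lay below it in *de2f1b* replicates 1 and 2, and *Mmp1* in replicate 2.

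**Figure D2:**
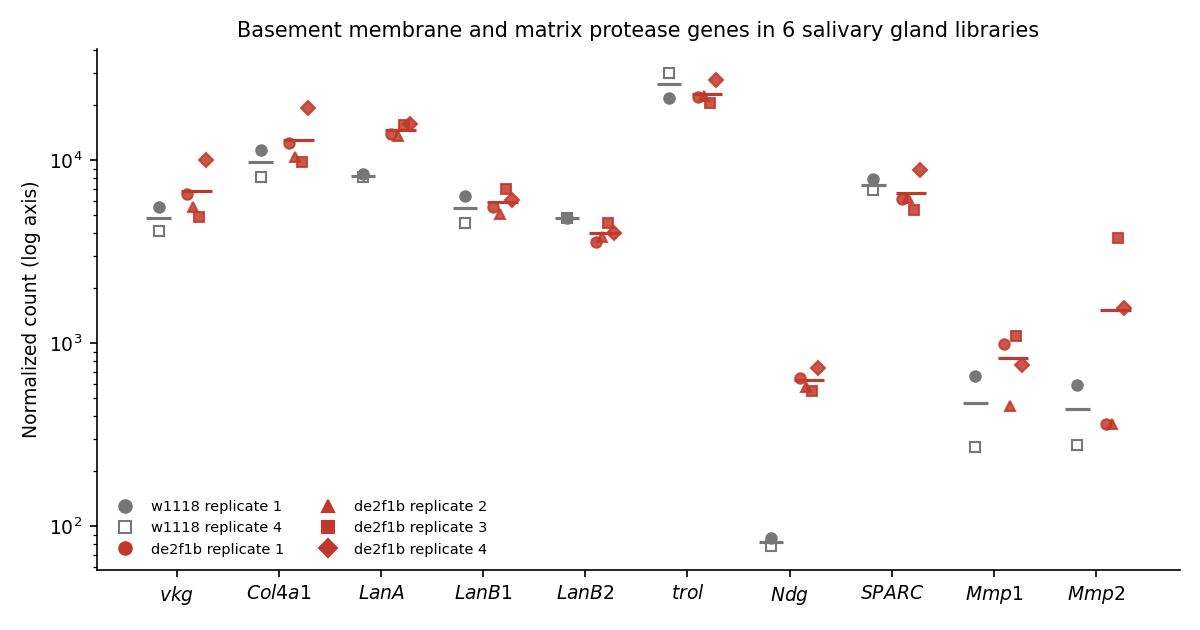
Each symbol is the normalized count of a gene in 1 SG library, on a log axis, with *w1118* in grey and *de2f1b* in red, and the short lines are the group means. The groups lie apart for *Ndg* and *LanA*, with all mutant libraries higher, and for *LanB2*, with all mutant libraries lower, and the *de2f1b* values of *Mmp2* range from 361 to 3781.

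The collagen IV chains are encoded by neighbouring genes that are transcribed away from each other. On chromosome 2L of BDGP6.54 *vkg* (FBgn0016075) lies at 5012144 to 5028191 on the minus strand and *Col4a1* (FBgn0000299) at 5029609 to 5037279 on the plus strand, with 1418 bp between their annotated starts. *vkg*, the alpha2 chain gene, was at 5541 and 4115 normalized counts in *w1118* replicates 1 and 4 and at 6572, 5583, 4913 and 9972 in *de2f1b* replicates 1 to 4. *Col4a1*, the alpha1 chain gene, was at 11435 and 8115 in *w1118* and at 12455, 10448, 9757 and 19247 in *de2f1b*. Both were highest in *de2f1b* replicate 4 and lowest in *w1118* replicate 4, and the groups overlapped. For *vkg* the log2 fold change was 0.45 (95% interval -0.27 to 1.17, adjusted p = 0.430, limma). That of *Col4a1* was 0.38 (95% interval -0.36 to 1.11, adjusted p = 0.501, limma). The chains therefore did not differ detectably between the genotypes at this number of libraries, and the intervals include a rise of over 1 on the log2 scale.

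The chains moved together from library to library. The ratio of *vkg* to *Col4a1* normalized counts was 0.485 and 0.507 in *w1118* and 0.528, 0.534, 0.504 and 0.518 in *de2f1b*, a range of 1.10-fold, although each gene alone ranged over 2.42-fold (*vkg*) and 2.37-fold (*Col4a1*). The groups overlapped (log2 difference 0.07, exact two-sided permutation p = 0.2, adjusted over the 6 ratios tested p = 0.24). With 2 libraries against 4 there are 15 splits, so no single ratio can reach a p under 0.0667. Hemocyte markers (13 genes, led by *Nplp2*, *crq* and *PPO2*) summed to 14735 and 12148 in *w1118* and to 17325, 14026, 12289 and 21330 in *de2f1b*, which ranks the 6 libraries as *Col4a1* does. This order rested on *Nplp2*, a gene for a neuropeptide-like precursor, since without it the sums were 12719 and 11664 in *w1118* and 10832, 11046, 8706 and 12289 in *de2f1b*. Of 12 hemocyte markers tested 4 had a positive and 8 a negative log2 fold change, with a median of -0.24. The fat body sum ranked the *de2f1b* libraries in the order 4, 1, 2 and 3 but had *w1118* replicate 4 above replicate 1. The part of these tissues in the collagen IV values was not tested.

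*SPARC* (FBgn0026562, chromosome 3R, 26869238 to 26871995) is the collagen-binding member. It was at 7886 and 6846 normalized counts in *w1118* and at 6174, 6234, 5359 and 8824 in *de2f1b*. The highest and the lowest value were both from mutant SGs, *de2f1b* replicates 4 and 3, and the groups overlapped. The log2 fold change was -0.17 (95% interval -0.69 to 0.35, adjusted p = 0.668, limma), and it was 0.033 when libraries were scaled by their totals without the top 50 genes. *SPARC* was then set against collagen IV within each library. The ratio of *SPARC* to *Col4a1* was 0.690 and 0.844 in *w1118* and 0.496, 0.597, 0.549 and 0.458 in *de2f1b*. All 4 mutant libraries lay below both controls, a log2 difference of -0.55 (exact two-sided permutation p = 0.0667, the smallest that 15 splits allow, adjusted over the 6 ratios p = 0.1).

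*SPARC* is also the gene of the 10 for which the study designed RT-qPCR primers, as 1 of the previously identified targets of regulated IRE1-dependent decay (RIDD), the cleavage of mRNAs by the ER stress sensor IRE1. The primers are shown because they define the *SPARC* amplicon of the study, whose RT-qPCR measurements were not analysed here. Each has 24 bases and is written 5′ to 3′.
SPARC forward: agctccatctgcatgtagtgctcg
SPARC reverse: atctgccagatgcacgacgagaag
The 4 RIDD genes with primers in the study were *SPARC*, *Indy* (a citrate transporter), *mys* (an integrin beta subunit) and *Lamp1* (a lysosomal membrane protein). Of these, 0 were called in either direction by limma, edgeR or DESeq2, and 0 had an unadjusted p under 0.05 in limma. *Indy* was at 4366 and 3211 normalized counts in *w1118* and at 5126, 3779, 3573 and 6295 in *de2f1b*. *mys* was at 10979 and 11886 in *w1118* and at 12647, 12446, 9932 and 8921 in *de2f1b*. *Lamp1* was at 22350 and 27101 in *w1118* and at 29189, 31641, 20141 and 21963 in *de2f1b*. In all 4 genes the groups overlapped, and the median log2 fold change was -0.02, beside 0.02 over all genes tested.

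The ratio of laminin chain genes ranged more widely over the libraries than that of collagen IV, by 2.04-fold for *LanA* to *LanB1*. *LanA* (FBgn0002526, chromosome 3L, 6203831 to 6218022) encodes 1 of the 2 fly laminin alpha chains. It was at 8391 and 8069 normalized counts in *w1118* and at 13869, 13593, 15500 and 15759 in *de2f1b*, so that all 4 mutant libraries lay above both controls. Such a separation upwards was seen in 17.4% of all genes tested and downwards in 16%. Both groups were narrow, since the controls differed by 1.04-fold and the mutant libraries by 1.16-fold. The log2 fold change was 0.83 (standard error 0.14, 95% interval 0.50 to 1.16, adjusted p = 0.0277, limma), or 1.78-fold. The size was steady when each library was left out in turn (0.80 to 0.87), but the call was lost each time, with adjusted p-values from 0.0529 without *de2f1b* replicate 3 to 0.243 without *w1118* replicate 4. Without *de2f1b* replicates 3 and 4, which were high in ring gland markers, it was 0.74 (adjusted p = 0.0671). Muscle markers (13 genes, led by *Act57B*, *Mhc* and *Mlc2*) summed to 53161 and 22827 in *w1118* and to 64515, 47613, 103331 and 182361 in *de2f1b*, which ranks the *de2f1b* libraries as *LanA* does. All 12 muscle markers tested had a positive log2 fold change, 6 of them at an unadjusted p under 0.05 in limma and 0 called. Nervous system markers (8 genes, led by *Syt1*, *Appl* and *elav*) gave the same order of the *de2f1b* libraries, with sums of 4080, 3686, 9299 and 9346, replicates 3 and 4 being nearly equal, beside 5086 and 6028 in *w1118*. This order rested on *Syt1*. Without it the sums were 598 and 157 in *w1118* and 351, 282, 5765 and 3460 in *de2f1b*, with replicate 3 above replicate 4, unlike *LanA*. The part of either tissue in the result was not tested.

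*LanB1* (FBgn0261800, chromosome 2L, 7811438 to 7820771), the beta chain gene, was at 6395 and 4542 normalized counts in *w1118* and at 5518, 5079, 6961 and 6095 in *de2f1b*. The groups overlapped, and the log2 fold change of 0.12 (95% interval -0.36 to 0.60, adjusted p = 0.738, limma) was -0.12 without *w1118* replicate 4. *LanB2* (FBgn0267348, chromosome 3L, 9614914 to 9623980), the gamma chain gene, was at 4865 and 4850 in *w1118* and at 3596, 3818, 4535 and 3999 in *de2f1b*. Here all 4 mutant libraries lay below both controls. A log2 fold change of -0.29 (standard error 0.14, 95% interval -0.63 to 0.05) did not pass the test (adjusted p = 0.295, limma).

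The ratios of the laminin chain genes separated the genotypes without overlap, although no ratio can pass the test with 15 splits. The ratio of *LanA* to *LanB1* normalized counts was 1.31 and 1.78 in *w1118* and 2.51, 2.68, 2.23 and 2.59 in *de2f1b*. All mutant values were higher (log2 difference 0.71, exact two-sided permutation p = 0.0667, adjusted p = 0.1), and the difference was 0.49 without *w1118* replicate 1 and 0.93 without *w1118* replicate 4. The ratio of *LanB1* to *LanB2* was 1.31 and 0.936 in *w1118* and 1.53, 1.33, 1.53 and 1.52 in *de2f1b*. These values also lay above both controls (log2 difference 0.41, exact two-sided permutation p = 0.0667, adjusted p = 0.1), but the difference was 0.17 without *w1118* replicate 4. The ratio of *LanA* to *LanB2*, which was chosen after the values were seen and was not tested, was 1.72 and 1.66 in *w1118* and 3.86, 3.56, 3.42 and 3.94 in *de2f1b*. Per kb of exon this ratio was 0.873 and 0.842 in *w1118* and between 1.73 and 1.99 in *de2f1b*, so that the alpha chain gene lay below the gamma chain gene in the controls and above it in all mutant libraries. Per kb, *LanA* lay also below *LanB1* in both controls (ratio 0.705 and 0.955) and above it in the 4 mutant libraries (1.20 to 1.44).

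**Figure D3:**
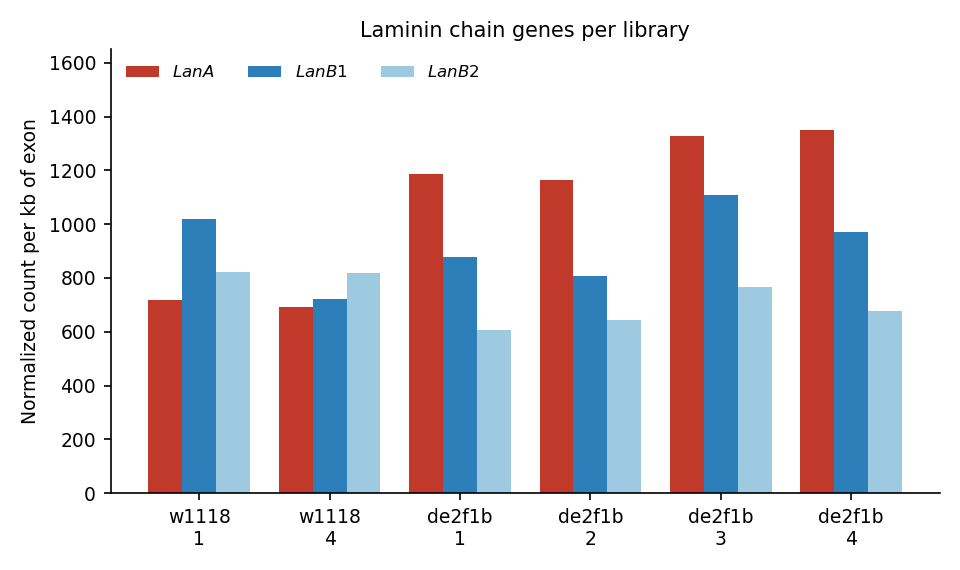
Bars show the normalized count per kb of exon of the laminin alpha (*LanA*), beta (*LanB1*) and gamma (*LanB2*) chain genes in each SG library. *LanA* is the lowest of the 3 in both *w1118* libraries (718 and 690 per kb) and the highest in all *de2f1b* libraries (1163 to 1348 per kb).

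The other laminin alpha chain is encoded by *wb*, which is no member of the 10 and far lower. It was at 377 and 179 normalized counts in *w1118* and at 359, 321, 887 and 604 in *de2f1b*. The values of *de2f1b* replicates 3 and 4 were the highest, those of replicates 1 and 2 lay between the controls, and the log2 fold change of 0.94 did not pass the test (adjusted p = 0.331, limma).

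*Ndg* (FBgn0026403, chromosome 2R, 10313891 to 10322104), the only fly nidogen gene, showed the largest difference of the 10. It was at 85.9 and 77.9 normalized counts in *w1118* and at 648, 579, 547 and 734 in *de2f1b*. The lowest mutant value was over 6 times the higher control, and the spread within a genotype was small beside this gap, 1.10-fold in *w1118* and 1.34-fold in *de2f1b*. In limma the log2 fold change was 2.91 (standard error 0.22, 95% interval 2.38 to 3.45, adjusted p = 0.0026, limma), and the ratio of the means was 7.66. Of the genes tested, 5.30% had a higher log2 fold change. *Ndg* passed the test also when each library was left out in turn (2.84 to 2.98, adjusted p from 0.00891 to 0.0289) and without *de2f1b* replicates 3 and 4 (2.89, adjusted p = 0.0153). Per kb of exon the level went from 17.0 in *w1118* to 130 in *de2f1b*, still below that of the laminin and collagen IV genes.

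The *de2f1b* libraries ranked 4, 1, 2 and 3 for *Ndg*, as for collagen IV and for the fat body sum. That sum overlapped between the genotypes, whereas *Ndg* did not. Of 12 fat body markers, 10 of them tested, 1 was called, *apolpp*, which encodes the lipid carrier of the hemolymph and was singled out after its values were seen. It was at 81305 and 72114 normalized counts in *w1118* and at 231289, 220946, 166196 and 292194 in *de2f1b*, with the same order of the mutant libraries as *Ndg* (log2 fold change 1.54, adjusted p = 0.0430, limma). Of the 10 fat body markers tested, 7 had a positive and 3 a negative log2 fold change, with a median of 0.26. The markers that led the sum, *Fbp1*, *Lsp2* and *Lsp1gamma*, were at 0.16, -0.01 and -0.65. Of 13 hemocyte markers, 12 of them tested, 1 was called, the phagocytic receptor gene *eater*, likewise singled out afterwards, and it was lower, from 429 and 378 in *w1118* to 109, 168, 130 and 172 in *de2f1b* (log2 fold change -1.49, adjusted p = 0.0439, limma). The hemocyte markers did not move one way, as at an unadjusted p under 0.05 in limma 3 were higher, *NimC1*, *Nplp2* and *crq*, and 2 lower, *eater* and *He*. The part of either tissue in the rise of *Ndg* was not tested. The exons of *Ndg* overlap over 3.28% of their length with *CG34222* on the other strand, which was at 0 in 5 libraries and at 65.1 in *de2f1b* replicate 3.

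The ratio of *Ndg* to *LanA* was 0.0102 and 0.00966 in *w1118* and 0.0467, 0.0426, 0.0353 and 0.0466 in *de2f1b*. All mutant libraries were higher, so *Ndg* differed more than *LanA* in each of them (log2 difference 2.08, exact two-sided permutation p = 0.0667, adjusted p = 0.1).

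*trol* (FBgn0284408, chromosome X, 2470460 to 2545427) encodes perlecan, the largest protein of the group, in 25 annotated transcripts with 20.674 kb of merged exon. It had the most reads of the 10 genes. The normalized counts were 21882 and 30020 in *w1118* and 22091, 22543, 20549 and 27396 in *de2f1b*, and the groups overlapped. Its log2 fold change of -0.16 (95% interval -0.64 to 0.33, adjusted p = 0.670, limma) had no stable sign, since it was 0.073 without *w1118* replicate 4 and 0.13 under quantile normalization. A count per gene does not show which of the transcripts were present.

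The matrix metalloproteinases varied most of the 10 within a genotype, up to 2.44-fold for *Mmp1* in *w1118* and 10.5-fold for *Mmp2* in *de2f1b*. *Mmp1* (FBgn0035049, chromosome 2R, 24671294 to 24688184) encodes a secreted protease. It was at 665 and 272 normalized counts in *w1118* and at 996, 455, 1101 and 758 in *de2f1b*. The groups overlapped through *de2f1b* replicate 2, and the log2 fold change of 0.88 (95% interval -0.26 to 2.02, adjusted p = 0.335, limma) ranged from 0.24 without *w1118* replicate 4 to 1.52 without *w1118* replicate 1. The exons of *Mmp1* overlap over 5.87% of their length with *Pof* on the other strand, which was at 560 and 419 in *w1118* and at 522, 396, 1282 and 501 in *de2f1b*. Since the sources do not state the strand setting of the counting, reads in such overlaps cannot be assigned.

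*Mmp2* (FBgn0033438, chromosome 2R, 9611139 to 9683858) encodes a protease that is anchored to the membrane. It was at 592 and 279 normalized counts in *w1118* and at 361, 362, 3781 and 1555 in *de2f1b*. *de2f1b* replicates 3 and 4 were high and replicates 1 and 2 lay between the controls. The log2 fold change of 1.20 (standard error 1.02, 95% interval -1.23 to 3.64, adjusted p = 0.515, limma) was -0.17 without *de2f1b* replicates 3 and 4. Replicates 3 and 4 were also those with high ring gland markers (summed to 17352 and 22961, beside 4189 to 8661 in the other 4 libraries) and high nervous system markers (9299 and 9346, beside 3686 to 6028). Most of the sums elsewhere came from *sro* and *Syt1*. Without *sro* the ring gland sums were 12573 and 16764, beside 34.8 to 57.5 in the other 4 libraries. Without *Syt1* the nervous system sums were 5765 and 3460, beside 157 to 598. The part of these tissues in the *Mmp2* values was not tested. The ratio of *Mmp1* to *Mmp2* was 1.12 and 0.977 in *w1118* and 2.76, 1.26, 0.291 and 0.487 in *de2f1b*, which placed the mutant libraries on both sides of the controls (log2 difference -0.32, exact two-sided permutation p = 0.867, adjusted p = 0.867). *Timp*, the inhibitor of these proteases, was at 924 and 627 in *w1118* and at 636, 826, 836 and 795 in *de2f1b* (log2 fold change 0.01, 95% interval -0.53 to 0.56, adjusted p = 0.976, limma).

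**Figure D4:**
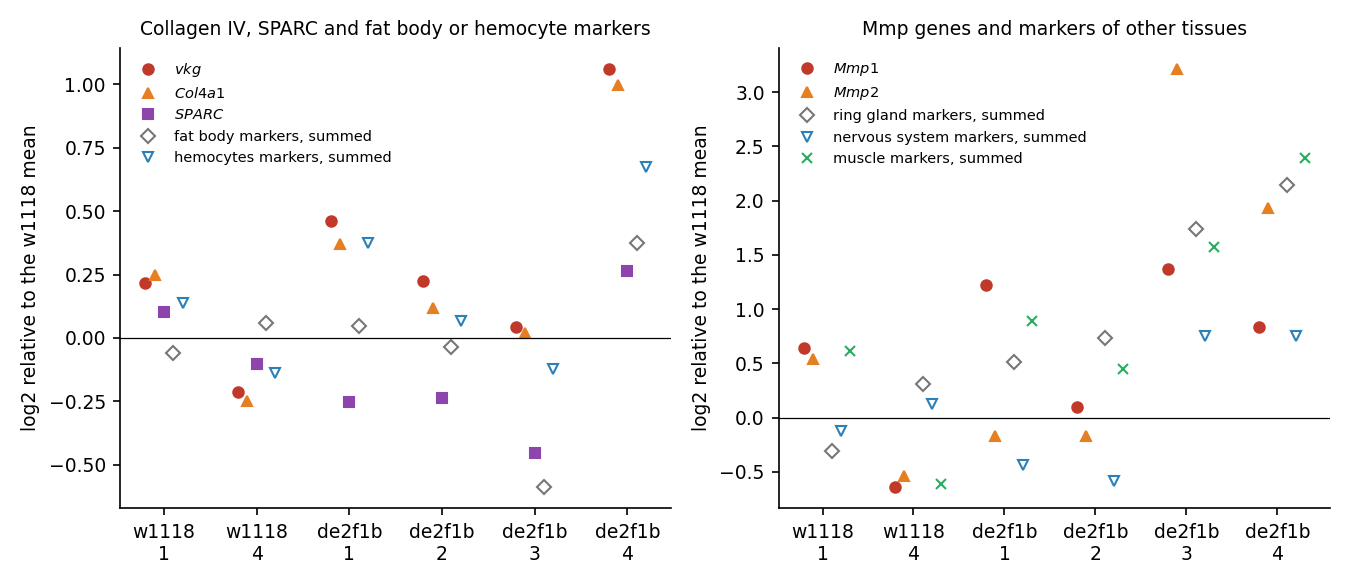
The log2 of the normalized count of each gene, or of the summed normalized counts of each list of tissue markers, is shown for every library relative to the mean of the *w1118* libraries, with genes as filled symbols and marker sums as open symbols or crosses. In the left panel *vkg* and *Col4a1* reach 1.06 and 1.00 in *de2f1b* replicate 4, where the hemocyte sum is at 0.67, and in the right panel *Mmp2* is at 3.22 and 1.93 in *de2f1b* replicates 3 and 4, where the ring gland sum is at 1.74 and 2.14. The hemocyte sum includes *Nplp2*, without which it was at 12289 normalized counts in *de2f1b* replicate 4, beside 12719 and 11664 in *w1118*. The ring gland sum includes *sro*, which was at 4132 to 8605 normalized counts over all libraries.

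Genes that act on or with these proteins were then examined in 4 lists. Of 11 other matrix components 0 were called in either direction by limma, edgeR or DESeq2 (1 higher and 0 lower at an unadjusted p under 0.05 in limma), and the median log2 fold change was 0.84, with 9 positive and 2 negative. The most abundant of them were *Glt*, which encodes the basement membrane protein glutactin, *Tig*, which encodes the integrin ligand tiggrin, and *dpy*, a giant protein of apical matrix. *Tig* was at 12238 and 10014 normalized counts in *w1118* and at 11995, 9956, 9334 and 18693 in *de2f1b*, again highest in replicate 4, and *Glt* at 13535 and 15143 against 13224, 12828, 8716 and 16047. *dpy* was at 1031 and 791 in *w1118* and at 980, 1288, 3353 and 2384 in *de2f1b*, with replicates 3 and 4 highest. These 2 libraries were also the highest for *wb*, *Ppn*, *NetA*, *NetB* and *Cow*. Of the genes with a positive log2 fold change, this did not hold for *Mp*, *loh* and *Tig*. Replicates 3 and 4 were the libraries with high ring gland and nervous system markers, whose part in the median of this list was not tested.

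Of the 14 genes of collagen modification and export 12 were tested, since *PH4alphaNE2* and *PH4alphaNE3* had too few reads. By limma as set out above and by edgeR 0 of them were called, and 2 higher and 2 lower had an unadjusted p under 0.05 in limma. DESeq2 called 3, *PH4alphaSG1* and *PH4alphaPV*, which were higher, and *ergic53*, which was lower. *PH4alphaPV* was at 0 and 0 normalized counts in *w1118* and at 373, 1.37, 51.5 and 0.782 in *de2f1b*. It passed the filter only through *de2f1b* replicates 1 and 3. *PH4alphaNE1*, 1 of the 2 higher, passed it only through *de2f1b* replicates 1 and 4. It was at 0.834 and 1.83 in *w1118* and at 16.0, 8.22, 6.33 and 15.6 in *de2f1b*. The median log2 fold change was -0.17. *ergic53*, a cargo receptor between ER and Golgi, was at 32319 and 55392 normalized counts in *w1118* and at 27122, 28693, 19520 and 21705 in *de2f1b*. All mutant libraries were lower, but the difference did not pass the test (log2 fold change -0.82, adjusted p = 0.163, limma). The prolyl 4-hydroxylase genes that are named for the SG, whose enzyme family hydroxylates collagen, lay on opposite sides. *PH4alphaSG1* was at 10879 and 11231 in *w1118* and at 20773, 24848, 14334 and 19612 in *de2f1b* (log2 fold change 0.82, adjusted p = 0.112, limma). *PH4alphaSG2* was at 19903 and 19594 in *w1118* and at 17461, 17439, 12311 and 16669 in *de2f1b* (log2 fold change -0.32, adjusted p = 0.377, limma). In both the groups did not overlap, yet neither passed the test. *PH4alphaSG1* did pass it in limma with equal library totals, with or without the top 50 genes, under quantile normalization, without *de2f1b* replicate 3 and without *de2f1b* replicates 3 and 4.

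Of 16 matrix receptors and adhesion genes 1 was called higher and 0 lower by limma, where 2 higher and 2 lower had an unadjusted p under 0.05, and the median log2 fold change was -0.05. *ItgaPS4*, an integrin alpha subunit gene, rose from 33.4 and 31.2 normalized counts in *w1118* to 255, 440, 219 and 160 in *de2f1b* (log2 fold change 2.92, standard error 0.44, adjusted p = 0.0208, limma). All mutant libraries lay above both controls, at levels that were still low for this list. The call was lost under quantile normalization, with the replicate block, and without *w1118* replicate 1, *w1118* replicate 4 or *de2f1b* replicate 1. Besides *ItgaPS4*, DESeq2 called 3 more genes, in different directions. *Itgbn* was higher (log2 fold change 1.86 in limma), and *if* (-0.85) and *Ilk* (-0.62) were lower. Over all genes DESeq2 called 1088 higher and 556 lower. The most abundant genes of the list were *rhea*, which encodes the integrin adaptor talin, the proteoglycan gene *Sdc* and *mys*. The log2 fold changes of *rhea* (-0.15), *Sdc* (-0.05) and *mys* (-0.07) did not pass the test (adjusted p = 0.678, 0.841 and 0.843, limma).

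Of 8 protease inhibitors and other matrix proteases 0 were called by limma, edgeR or DESeq2, 0 higher and 1 lower had an unadjusted p under 0.05 in limma, and the median log2 fold change was 0.12. The most abundant were the metalloproteinase genes *Meltrin*, *AdamTS-A* and *kuz*. *Meltrin* was at 10348 and 20902 normalized counts in *w1118* and at 9398, 9194, 5995 and 4565 in *de2f1b* (log2 fold change -1.08, adjusted p = 0.192, limma). Its controls differed by 2.02-fold, and all mutant libraries lay below both. *AdamTS-A* was at 9426 and 13188 in *w1118* and at 11795, 10990, 6806 and 6204 in *de2f1b*, and *kuz* at 2738 and 1954 against 2578, 2260, 3385 and 2696. In both of these the groups overlapped.

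**Figure D5:**
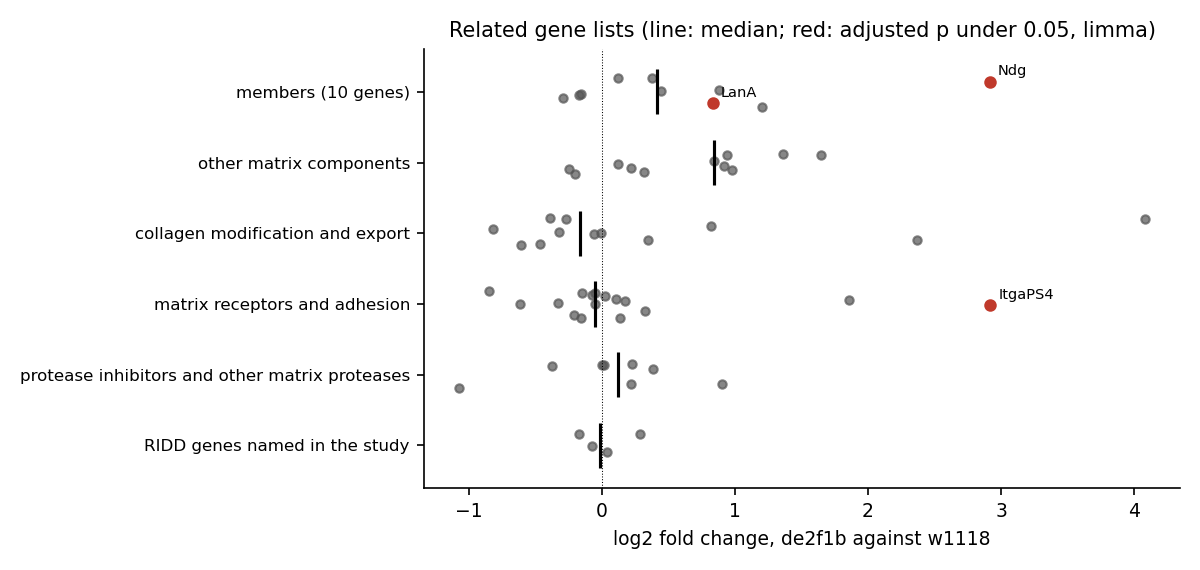
Each point is the log2 fold change of a gene in *de2f1b* SGs relative to *w1118* SGs (x axis), by list (y axis), with the list's median as a line and genes at an adjusted p under 0.05 (limma) in red. Only *Ndg*, *LanA* and *ItgaPS4* are red, and the medians range from -0.17 for collagen modification and export to 0.84 for the other matrix components.

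The genes whose pattern over the 6 libraries was most like that of *LanA* and *Ndg* were listed by Pearson's r of the log2 values among 8125 genes with a mean of at least 100. The points share the 2 genotypes, the libraries and their depth, and r is given as a description only. For *LanA* these genes were *hng3* (r = 0.998), *CG6321* (r = 0.994) and *zyd* (r = 0.994). *hng3* was at 143 and 115 normalized counts in *w1118* and at 482, 466, 637 and 604 in *de2f1b*. For *Ndg* they were *CG31664* (r = 1.000), *CG43182* (r = 0.999) and *CG43402* (r = 0.998). *CG43402* was at 70.9 and 74.2 in *w1118* and at 2958, 2531, 1968 and 2899 in *de2f1b*, and *CG31664* had at most 3 reads in each control and was at 632, 447, 336 and 795 in *de2f1b*.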

How the data were processed

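Paired-end RNA-seq reads of SG RNA were processed by the authors, per the submitters' processing notes with FastQC 0.11.8, STAR 2.7.6a, featureCounts 1.6.0 and DESeq2 (version not given in the sources used here) on build BDGP6. The deposited value of each library is a signal, the read count of a gene divided by 1 size factor for each library. A mean over libraries, log2 fold changes, a test score and p-values of their own comparison were deposited too and not used. Divided by what 1 read is worth, 100% of the values in each library came out whole within 0.01 read, so whole reads were recovered. Limits of 3 reads cover counting error only.

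Genes that reached a normalized count of 10 in 2 or more libraries were compared between the genotypes with limma 3.58.1 in R 4.3.3 on log2(value + 1), with an intensity trend and no other term. Its two-sided p-values were adjusted by Benjamini-Hochberg over all genes tested, and genes were called at an adjusted p-value under 0.05. Fold changes on this scale understate those of low genes. Ratios of gene pairs were compared by exact permutation. The main limma fit and the edgeR and DESeq2 fits were tested on simulated data. The simulation gave every gene the same spread between replicates and no RNA of other tissues, unlike these libraries. The other limma settings and the correlations were not tested in this way. Positions and exon lengths are those of the BDGP6.54 annotation and may differ from the one the reads were counted on. Alternatives were other pseudocounts, filters, scalings and variance models, blocking by replicate number, leaving out libraries, and count tests of the recovered reads (edgeR 4.0.16, DESeq2 1.42.0). With 1 control left out, the lone control was assumed to vary like the mutant libraries. SciPy 1.17.1, NumPy 2.4.6, pandas 2.3.3 and Matplotlib 3.10.9 under Python 3.11.15 served for the rest.

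The genes and lists were chosen with earlier results of these data known. Named were the 10 genes, every called gene of the related lists with up to 3 more of the highest mean, the 3 highest markers of a tissue where its sum is described, and the 3 genes most like each called gene in pattern. *wb*, *Timp*, *apolpp* and *eater* were named outside this rule after their values were seen, as were genes behind counts of 5 or fewer. The same holds for *Ppn*, *NetA*, *NetB*, *Cow*, *Mp* and *loh* among the other matrix components. *Pxn* is in both the hemocyte list and that of other matrix components.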

Additional observations from a re-analysis of the deposited data

Results flagged for a closer look

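In groups of 4 libraries, a value that stood apart from the other 3 was looked for by Dixon's criterion (the gap to the nearest library over the whole range) in 26 sets of values. It was met 2 times, and chance alone gives about 1 in 20, or 1.3. The log2 ratio of *LanB1* to *LanB2* was low in *de2f1b* replicate 2 (1.33 on the linear scale, beside 1.52 to 1.53 in the other mutant libraries), with a gap over the range of 0.951. The number of recovered reads was high in *de2f1b* replicate 4 (86202639, beside at most 58535649 in the other mutant libraries), with a gap over the range of 0.916. Replicate 4 was also the library with the highest *vkg*, *Col4a1*, *SPARC*, *trol*, *LanA* and *Ndg* values among the *de2f1b* libraries.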

How the results depend on the processing

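Of 200 log2 fold changes of the 10 genes under the alternatives, 180 kept their direction and their side of the threshold, 12 lost the call and 8 turned direction. *Ndg* was called under 19 of 20 alternatives (2.37 to 3.12) and *LanA* under 9 of 20 (0.74 to 1.05). The count of genes called higher among the 10 was 1 under quantile normalization (*LanA* adjusted p = 0.0519), without the trend (0.0563) and without *de2f1b* replicates 3 and 4, 1 with any library left out, and 0 with the replicate block (*LanA* adjusted p = 0.573, *Ndg* 0.157). *LanA* was also lost when libraries were scaled to equal totals (0.0978), where *Ndg* was called. The labels do not say whether libraries with the same replicate number are paired. Deviations from the group means correlated at -0.337 and -0.431 between same-numbered libraries. With 2 controls these deviations mirror each other, so the correlations cannot decide on pairing. In the block fit *de2f1b* replicates 2 and 3 had no control of the same number, so its fold changes rest on replicates 1 and 4.

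The changes of direction were in genes not called: *trol* at 0.047 with equal totals outside the top 50 genes, 0.13 under quantile normalization and between -0.38 and 0.073 with a library left out, *SPARC* at 0.033 with equal totals outside the top 50 genes and 0.0065 with the replicate block, *LanB1* between -0.12 and 0.37 with a library left out, and *LanB1* at -0.026 and *Mmp2* at -0.17 without *de2f1b* replicates 3 and 4. Among the ratios, *vkg* to *Col4a1* was -0.013 under quantile normalization, and *Mmp1* to *Mmp2* was between -0.90 and 0.18 with a library left out. The cause was not tested.

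Over all genes, those called higher and lower were 352 and 119, and 208 and 71 without a filter, 201 under quantile normalization (higher), 5 and 2 with the replicate block, 198 with edgeR (higher) and 1088 and 556 with DESeq2. With a library left out they ranged from 72 to 242 and from 5 to 68. The median of all genes, 0.02, was 0.17 with equal totals, 0.22 with equal totals outside the top 50 genes and -0.10 under quantile normalization, so that *LanA* (1.05) and *Ndg* (2.37) lay above it there too.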
